A study of Mus musculus with 4 samples.

Results

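The TNF superfamily is a family of trimeric ligands, most of them bound to the cell membrane, and of receptors with cysteine-rich extracellular domains. Some receptors carry a death domain and can start apoptosis through the adaptors Fadd and Tradd, and most of the others recruit TRAF adaptors and lead to NF-kB. In the gut the family links the epithelium with stromal and immune cells, and TNF itself is a central cytokine of intestinal inflammation.

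The family members examined were the rows of the deposited gene table named Tnfsf or Tnfrsf with a number and at most 1 letter, together with Fas, Fasl, Cd40, Cd70, Cd27, Lta, Ltb, Ltbr, Eda2r and Edar. This gave 42 of 29179 rows, 15 ligands and 27 receptors. They carry 41 names, since Tnfrsf22 is listed under 2 identifiers. Tnf itself does not match the rule.

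The family was examined in 4 RNA-seq libraries of YAMC cells, a conditionally immortalised mouse line that the labels call colonocytes. Cells at passages 10 to 12 were grown at 33 °C with interferon-γ, transfected there with 50 nM of siRNA, and then moved to 37 °C in medium free of interferon-γ. The siRNA was a control or one that targets Sirt6, whose product removes acyl groups from chromatin proteins. TNF (100 ng/mL) was added 48 h after transfection and left for 24 h, or the medium was changed without it. The libraries are given in a fixed order throughout: first the control siRNA library without TNF, then its TNF counterpart, then the Sirt6 siRNA library without TNF, and last the one with both. Each group is 1 library, so there is no replicate error and every difference compares libraries. All 4 groups share the interferon-γ before treatment, the transfection and the shift in temperature.

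Libraries held 18793708 to 23749380 gene-assigned reads. Sirt6, at 388 and 352 reads with control siRNA, had 171 and 150 with Sirt6 siRNA (log2 ratio -1.26, 95% counting interval -1.54 to -1.01, in medium, and -1.41, -1.71 to -1.14, with TNF). Of 13 colon epithelium markers 5 reached 1 RPM (reads scaled to a library total of 1000000) in any library, the keratin genes Krt8, Krt18 and Krt19, Cdh1 and Slc26a3. Epcam had 0, 0, 0 and 2 reads, and Vil1 0, 4, 0 and 0. Of 10 mesenchyme markers 9 reached 1 RPM. The summed mesenchyme level was 6320 normalised RPM in control siRNA medium and 5290 with TNF, and 6470 and 5460 with Sirt6 siRNA. The summed epithelial level was 1810 in control siRNA medium and 1340 with TNF, and 1490 and 1180 with Sirt6 siRNA. Both sums were thus lower with TNF under each siRNA. Of 10 leukocyte markers 3 reached 1 RPM (Cd68, Csf1r and Itgam), their sum was 17.1 to 21.4, and Ptprc, the pan-leukocyte gene, had 0, 0, 4 and 4 reads. The part of these shifts in the results was not tested. In bulk RNA, fewer cells of a type and less RNA per cell cannot be told apart.

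With control siRNA, TNF raised 6 of the 28 members that reached 1 RPM in some library and lowered 1, and the same numbers were found with Sirt6 siRNA. A member is said to rise or fall where its ratio was at least 2-fold and the exact 95% interval of the read ratio, which covers counting error only, left out 1. The same rule was passed upward by 2.29% and downward by 1.24% of 15274 genes with control siRNA, and by 2.17% and 1.49% with Sirt6 siRNA. Under both siRNAs 5 members rose, where 1.62% of all genes did: the receptor genes Fas, Tnfrsf9 and Tnfrsf14 and the ligand genes Tnfsf15 and Tnfsf18. The ligand gene Tnfsf13 fell under both, where 0.524% of all genes did. Of the members that rose, Tnfrsf9 and Tnfsf15, and Tnfrsf8 and Tnfsf11 under 1 siRNA, reached 1 RPM through TNF libraries alone. That favours a rise, so the counts are a description.

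Windows from 250 bases before to 50 after the annotated start were taken from RefSeq (GRCm38.p6) for 4 of the members that rose under both siRNAs, to show what lies upstream of them. Of 41 member names 32 had a window. Capitals mark matches, on either strand, to the kappaB consensus bound by NF-kB, to the core of the interferon-stimulated response element (GAAA, any 2 bases, GAAA), or to TTCNNNGAA, the gamma-activated site bound by STAT factors. For Tnfrsf9 the window of its downstream start is given, chosen because it holds matches, while that of its upstream start has none.
Fas, chr19:34290409-34290708, plus strand: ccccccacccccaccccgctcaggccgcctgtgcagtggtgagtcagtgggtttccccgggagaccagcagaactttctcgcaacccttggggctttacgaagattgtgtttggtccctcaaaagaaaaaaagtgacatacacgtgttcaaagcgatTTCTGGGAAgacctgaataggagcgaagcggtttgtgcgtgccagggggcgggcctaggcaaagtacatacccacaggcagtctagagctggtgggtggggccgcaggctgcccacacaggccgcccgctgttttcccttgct
Tnfrsf9, chr4:150927749-150928048, plus strand: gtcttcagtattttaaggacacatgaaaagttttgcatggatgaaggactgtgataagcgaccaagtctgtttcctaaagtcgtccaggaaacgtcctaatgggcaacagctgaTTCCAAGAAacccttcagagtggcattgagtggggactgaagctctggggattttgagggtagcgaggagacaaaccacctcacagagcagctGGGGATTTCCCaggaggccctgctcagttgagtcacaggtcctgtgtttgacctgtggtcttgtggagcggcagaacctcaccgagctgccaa
Tnfrsf14, chr4:154928028-154928327, minus strand: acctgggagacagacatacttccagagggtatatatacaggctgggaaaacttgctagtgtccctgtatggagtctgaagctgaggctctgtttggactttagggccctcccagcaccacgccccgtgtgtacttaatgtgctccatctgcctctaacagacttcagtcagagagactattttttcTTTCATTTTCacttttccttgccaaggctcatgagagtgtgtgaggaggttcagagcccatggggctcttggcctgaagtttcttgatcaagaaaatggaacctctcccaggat
Tnfsf18, chr1:161494407-161494706, plus strand: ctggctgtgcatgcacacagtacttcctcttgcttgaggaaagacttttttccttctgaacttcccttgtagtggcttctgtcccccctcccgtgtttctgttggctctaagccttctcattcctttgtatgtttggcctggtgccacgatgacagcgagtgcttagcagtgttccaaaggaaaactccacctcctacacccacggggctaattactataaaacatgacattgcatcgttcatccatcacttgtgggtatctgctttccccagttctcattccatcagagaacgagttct
The capitals are a gamma-activated site in Fas at 93 bases before the start. In Tnfrsf9 they are a gamma-activated site at 136 bases before the start and, at 43, a pair of kappaB matches that overlap by all but 1 base. In Tnfrsf14 they are an interferon-stimulated response element core at 64 bases before the start. No match to the 3 motifs lies in the window of Tnfsf18, the member with the largest rise under control siRNA, or in that of Tnfsf15. Of the members that rose under 1 siRNA, Tnfrsf8 has a kappaB match at 168 bases before the start and Tnfsf11 has no match. Over all 32851 promoter windows, 4.51% held the kappaB consensus, 3.44% the response element core and 8.3% TTCNNNGAA. Over the 36 member windows, 3 held the first, 4 the second and 9 the third. A match is a description of letters and not a site of binding.

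Most of the family's reads came from receptors. Receptors had 20851 to 23226 reads per library and ligands 808 to 1121. On the scale of normalised RPM per kilobase of annotated exon, which allows genes to be compared, Tnfrsf12a stood highest with a mean of 124 over the 4 libraries. It encodes the receptor for the ligand made from Tnfsf12. Then came Tnfrsf1b and Tnfrsf1a, the receptors of TNF, at 46.2 and 44.2, and Ltbr, the lymphotoxin beta receptor, at 43.2. These 3 receptors did not separate, since their ranges over libraries were 40.0 to 52.7, 41.4 to 48.5 and 41.6 to 45.5. Eda2r, a receptor for an ectodysplasin isoform, followed at 25.1, Fas at 21.4 and Tnfrsf10b, the mouse death receptor for TRAIL, at 14.7. The highest ligand was Tnfsf12, at 12.8, followed by Tnfsf9, at 7.79.

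**Figure D1:**
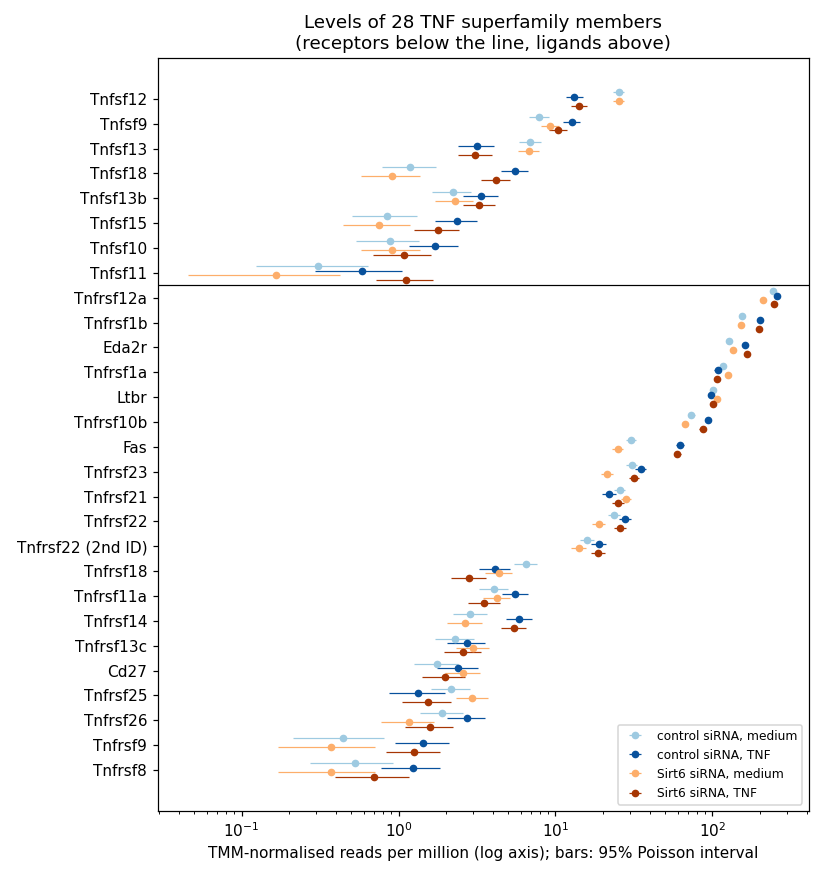
TMM-normalised RPM (log axis) of the 28 members that reached 1 RPM, one point per library, with 95% Poisson intervals; blue is control siRNA, orange to brown Sirt6 siRNA, and the darker shade is TNF. Tnfrsf12a lies at 211 to 258 and every ligand at or below 25.3.

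Apart from Tnfsf12, Tnfsf9 and Tnfsf13, the ligand genes had at most 103 reads in any library. Of 15 ligands, 8 reached 1 RPM in some library. No read was found for Lta, Tnfsf8 or Tnfsf14, where a zero leaves room for 3 reads (0.126 to 0.160 RPM). Fasl had 1 read in all, Cd70 had 0 to 2 per library, Ltb 3 or 4 and Tnfsf4, the ligand of the T cell co-stimulator encoded by Tnfrsf4, 2 to 8. Outside the rule, Tnf had 2 reads in each control siRNA library and none with Sirt6 siRNA, Cd40lg had none, and Eda had 3 to 8. Cells given TNF protein thus had no more than 2 reads from the Tnf gene.

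Among receptors, 20 of 27 reached 1 RPM. Tnfrsf13b and Tnfrsf17, receptors of plasma and B lineage cells, had no read. Edar and Tnfrsf19 had 0 to 2 reads per library, Cd40 had 7 to 13, and Tnfrsf4 had 15, 15, 22 and 8. Those 14 of the 42 members that did not reach 1 RPM were not compared with the rest. Of the 28 compared, 5 reached the minimum through TNF libraries alone (Tnfsf10, Tnfsf11, Tnfsf15, Tnfrsf8 and Tnfrsf9), which favours a rise, and none through medium libraries alone. The counts of members that rose are therefore a description. With a minimum of 1 RPM on the mean of the 4 libraries, 25 members stayed and 4 rose under each siRNA. The share of all genes that rose under that minimum was not computed.

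Tnfsf18 encodes a ligand that co-stimulates T cells through the receptor encoded by Tnfrsf18. It had 27 reads with control siRNA in medium and 103 with TNF, and 22 and 89 with Sirt6 siRNA. Both TNF libraries stood above both medium libraries, at 5.50 and 4.17 against 1.19 and 0.915 normalised RPM. It rose 4.36-fold with control siRNA (log2 2.12, 1.58 to 2.88) and 4.23-fold with Sirt6 siRNA (log2 2.08, 1.50 to 2.93). Its receptor gene moved the other way without passing the rule. Tnfrsf18 had 146 and 77 reads with control siRNA and 105 and 60 with Sirt6 siRNA, with log2 ratios of -0.64 (-1.07 to -0.24) and -0.62 (-1.12 to -0.16). Of the 50-base sequences of Tnfrsf18 transcripts, 18.7% also occur, on either strand, in the gene model Gm16008, so some of its reads may belong there.

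Tnfsf15 encodes a ligand known from inflammatory bowel disease, whose receptor is the death-domain receptor Tnfrsf25. Reads of Tnfsf15 went from 19 to 44 with control siRNA and from 18 to 38 with Sirt6 siRNA. It rose 2.62-fold (log2 1.39, 0.68 to 2.35) and 2.23-fold (log2 1.16, 0.41 to 2.15), with both TNF libraries above both medium libraries. Tnfrsf25, at 49 and 25 reads with control siRNA and 71 and 33 with Sirt6 siRNA, had log2 ratios of -0.66 (-1.45 to 0.03) and -0.89 (-1.58 to -0.32), which do not pass.

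Tnfsf13 and Tnfsf12 are neighbouring ligand genes. Tnfsf13, whose product acts on B cells through Tnfrsf13b and Tnfrsf17, had 157 and 59 reads with control siRNA and 163 and 66 with Sirt6 siRNA. It fell 2.17-fold and 2.16-fold (log2 -1.11, -1.59 to -0.70, and -1.11, -1.57 to -0.71). Tnfsf12 encodes a ligand of tissue injury and repair. It had 571, 248, 608 and 301 reads, and both TNF libraries lay below both medium libraries. Its log2 ratios, -0.92 (-1.15 to -0.71) and -0.84 (-1.05 to -0.64), stayed short of the 2-fold limit. Both genes overlap the read-through gene listed as BC096441 (Tnfsfm13), with which Tnfsf13 shares 57.3% and Tnfsf12 46.8% of its 50-base sequences. BC096441 had 430, 171, 405 and 225 reads, with log2 ratios of -1.05 and -0.67. The 3 rows cannot be counted as independent, and reads cannot be assigned to one of them with confidence. Tnfrsf12a, the receptor for the Tnfsf12 product, had 243 and 258 normalised RPM with control siRNA and 211 and 246 with Sirt6 siRNA, and log2 ratios of 0.08 (0.03 to 0.14) and 0.22 (0.16 to 0.27).

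Tnfsf11 encodes the ligand of Tnfrsf11a that drives osteoclast and M cell formation. It had 7 and 11 reads with control siRNA and 4 and 24 with Sirt6 siRNA. It passed the rule with Sirt6 siRNA (log2 2.23, 1.22 to 4.74) and not with control siRNA (log2 0.76, -0.57 to 2.53). The difference of the 2 responses, log2 1.47, had an interval of -0.24 to 3.69 that included 0. Tnfrsf11b, the soluble decoy receptor for the Tnfsf11 product, had 12, 16, 2 and 21 reads and did not reach 1 RPM in any library. The library with Sirt6 siRNA in medium was the low one. Without the minimum its log2 ratio for TNF with Sirt6 siRNA was 2.62 (1.53 to 6.70), and its difference of responses, 2.02 (0.45 to 4.78), passed the limits, but with counts halved, as explained further on, the interval of that difference was -0.47 to 5.27.

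The remaining ligands did not pass. Tnfsf9, a T cell co-stimulator, had 178, 237, 223 and 222 reads and log2 ratios of 0.68 (0.40 to 0.98) and 0.16 (-0.11 to 0.44). Tnfsf13b, the B cell survival factor, had 50, 63, 55 and 70 reads, with 0.59 (0.05 to 1.17) and 0.50 (-0.01 to 1.06). Tnfsf10, the gene of the apoptosis-inducing ligand TRAIL, had 20, 32, 22 and 23 reads, with 0.89 (0.10 to 1.84) and 0.22 (-0.67 to 1.15).

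Of 5 compared receptors with a death domain, Fas rose and the other 4 did not pass. Fas starts apoptosis on binding its ligand. It had 685 and 1161 reads with control siRNA and 600 and 1274 with Sirt6 siRNA, which is 30.2, 62.0, 24.9 and 59.7 normalised RPM. Both TNF libraries stood apart from both medium libraries. The rise was 2.05-fold (log2 1.03, 0.90 to 1.17) and 2.39-fold (log2 1.26, 1.12 to 1.40). Fas was the most deeply read of the members that changed.

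Tnfrsf10b had 73.5, 93.8, 66.7 and 86.4 normalised RPM, so that both TNF libraries were above both medium libraries, with log2 ratios of 0.35 (0.25 to 0.45) and 0.37 (0.28 to 0.47). Tnfrsf1a, the TNF receptor with a death domain, went the other way, at 117, 108, 126 and 107, with log2 ratios of -0.12 (-0.20 to -0.04) and -0.23 (-0.31 to -0.15). Tnfrsf21, at 22.0 to 28.2, had -0.23 (-0.42 to -0.05) and -0.17 (-0.34 to -0.01). None of these 3 reached 2-fold, though all their intervals leave out 0.

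The TNF receptor without a death domain, Tnfrsf1b, had 155, 201, 153 and 197 normalised RPM. Its log2 ratios were 0.37 (0.31 to 0.44) and 0.36 (0.30 to 0.43). Each of the receptor pair for TNF therefore moved by less than 1.5-fold, Tnfrsf1b toward higher and Tnfrsf1a toward lower levels. Eda2r had 128, 160, 136 and 167, with 0.32 (0.25 to 0.40) and 0.30 (0.23 to 0.37). Ltbr was level, at 101, 97.8, 107 and 101, with -0.05 (-0.14 to 0.04) and -0.09 (-0.17 to -0.00).

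Among receptors that co-stimulate lymphocytes, Tnfrsf14 and Tnfrsf9 rose. Tnfrsf14, which binds the Tnfsf14 ligand, had 65 and 110 reads with control siRNA and 64 and 116 with Sirt6 siRNA. Its ratio was 2.01-fold each time (log2 1.01, 0.58 to 1.50, and 1.01, 0.58 to 1.49), just past the limit. With library totals alone in place of the normalisation the log2 ratios were 0.99 and 0.96, which do not pass. Tnfrsf9, the receptor of the Tnfsf9 ligand, had 10 and 27 reads with control siRNA and 9 and 27 with Sirt6 siRNA. It rose 2.87-fold (log2 1.52, 0.62 to 2.92) and 2.91-fold (log2 1.54, 0.63 to 3.03), with both TNF libraries above both medium libraries.

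Tnfrsf8, a receptor of activated lymphocytes, had 12 and 23 reads with control siRNA and 9 and 15 with Sirt6 siRNA. It passed with control siRNA (log2 1.09, 0.15 to 2.35) but not with Sirt6 siRNA (log2 0.77, -0.38 to 2.28), and the difference of -0.32 (-1.84 to 1.22) included 0. Cd27, Tnfrsf13c and Tnfrsf26, with 28 to 72 reads per library, did not pass in either comparison.

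The decoy receptors for TRAIL, Tnfrsf22 and Tnfrsf23, lie side by side and resemble each other, with 27.4% and 19.3% of their 50-base sequences found in other genes. Tnfrsf23 had 691, 651, 513 and 674 reads, with log2 ratios for TNF of 0.19 (0.03 to 0.35) and 0.56 (0.40 to 0.73). The first Tnfrsf22 identifier had 534, 519, 453 and 551 reads, with 0.23 (0.06 to 0.41) and 0.45 (0.27 to 0.64). The second had 360, 353, 339 and 399 reads, with 0.25 and 0.41. In all 3 rows the library with Sirt6 siRNA in medium was the lowest.

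**Figure D2:**
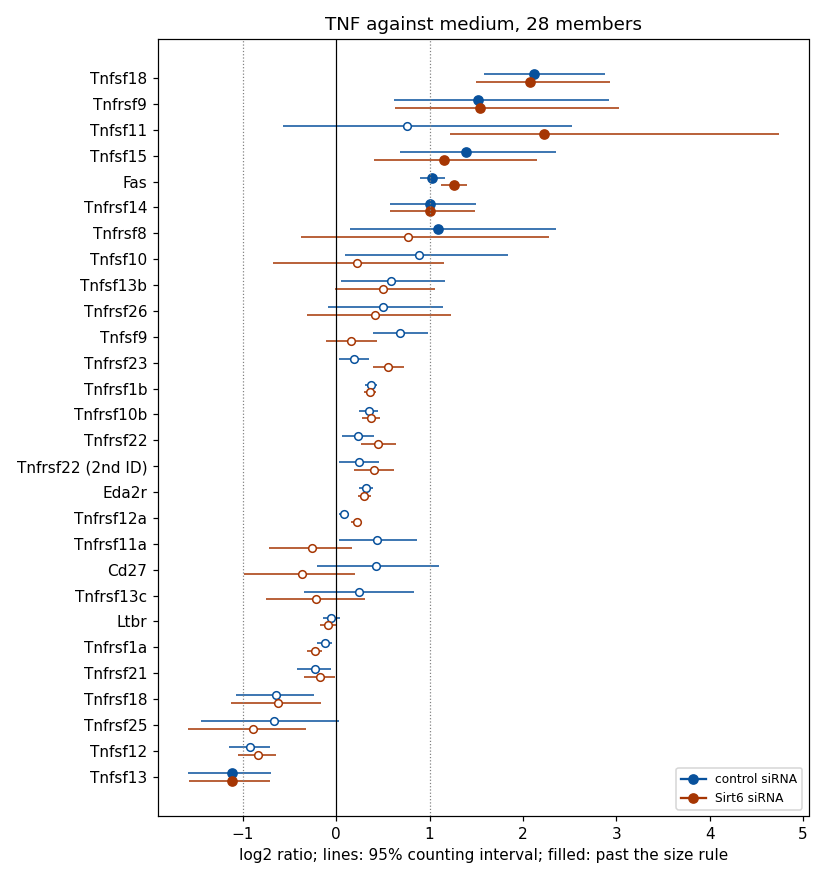
Log2 ratio of TNF to medium for the 28 compared members, blue with control siRNA and brown with Sirt6 siRNA, with 95% counting intervals as lines; filled points pass the size rule and dotted lines mark 2-fold. Tnfsf18 lies at 2.12 and 2.08 and Tnfsf13 at -1.11 and -1.11, while most receptors lie within 2-fold.

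Over the 28 compared members the median log2 ratio for TNF was 0.36 with control siRNA and 0.33 with Sirt6 siRNA, beside -0.00 and -0.01 over all genes compared. Ratios were above 0 for 21 and 18 members, and for 7612 and 7401 of the 15274 genes. With the interval alone, 17 were higher and 5 lower with control siRNA, against 20.9% and 22.8% of all genes, and 13 and 7 with Sirt6 siRNA, against 23.6% and 23.8%. All 4 libraries were also put in an additive model with terms for siRNA and TNF, which has 1 residual degree of freedom and takes its spread from all genes. The edgeR quasi-likelihood test of that model, adjusted by Benjamini-Hochberg over all genes compared, called 14 members higher and 5 lower with TNF, where 14.4% and 15.1% of all genes were called. These 14, and the 17 and 13 of the interval alone, each include both Tnfrsf22 identifiers and Tnfrsf23. Those rows share a name or sequence and cannot be counted as independent. DESeq2 called 5 and 2, against 6.48% and 4.88% of all genes. Its 5 were Fas, Tnfsf18, Tnfrsf1b, Eda2r and Tnfrsf10b, and its 2 were Tnfsf12 and Tnfsf13. Of members that rose by the size rule, Tnfrsf14 (adjusted p 0.052) and Tnfsf15 (0.2) were not called by DESeq2, which gave no adjusted p for Tnfrsf8, Tnfrsf9 and Tnfsf11. By edgeR the adjusted p was 0.11 for Tnfrsf8. By edgeR the adjusted p was 3.3e-50 for Fas, 6.9e-13 for Tnfsf18, 2.3e-15 for Tnfsf12 and 4.6e-13 for Tnfrsf1b, values that rest on the pooled spread and not on replicates.

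Silencing of Sirt6 moved no member past the rule, in medium or with TNF. Of all genes, 0.491% passed upward and 0.524% downward in medium, and 0.393% and 0.655% with TNF. Ratios of the 28 members ran from -0.66 to 0.52 in medium, with a median of -0.07, and from -0.74 to 0.84 with TNF, with a median of -0.09. Over all genes the medians were 0.00 and -0.00. Ratios were below 0 for 16 members in medium and 22 with TNF, and for 7629 and 7741 of the 15274 genes. In the additive model edgeR called none of the 28 higher for siRNA, where 3.43% of all genes were called. It called 2 lower, Tnfrsf12a (adjusted p 0.041) and Tnfrsf23 (0.0052), where 3.16% of all genes were called. DESeq2 called none in either direction, where 0.537% and 0.478% of all genes were called. For this term it gave no adjusted p for many of the members, among them Tnfrsf18, Tnfrsf14, Tnfsf18 and Tnfsf13. It gave none for Sirt6 itself either (log2 -1.34). These genes could not be called, so the absence of DESeq2 calls says nothing about them. At an unadjusted p under 0.05, edgeR called 0 higher and 7 lower, and DESeq2 0 and 1. No share of all genes was computed at that limit, so those counts cannot be set against one. The silencing comparisons share libraries with the TNF comparisons.

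With the interval alone and no minimum fold, 2 members were higher and 6 lower in medium, against 14.8% and 16.7% of all genes, and 1 higher and 6 lower with TNF, against 14.9% and 12.5%. The more deeply read members had narrow intervals here. For Fas the log2 ratio of Sirt6 siRNA to control siRNA without TNF was -0.28 (-0.44 to -0.12), and in the TNF pair it was -0.05 (-0.17 to 0.06). For Tnfrsf12a it was -0.20 (-0.26 to -0.15) and -0.07 (-0.12 to -0.01), for Tnfrsf1b -0.02 (-0.09 to 0.04) and -0.03 (-0.10 to 0.03), and for Tnfrsf1a 0.10 (0.03 to 0.18) and -0.01 (-0.09 to 0.08). Tnfrsf23 was at -0.51 (-0.68 to -0.35) and -0.14 (-0.30 to 0.02). Tnfrsf18 was lower in both, by -0.55 (-0.94 to -0.19) and -0.53 (-1.06 to -0.04). For these counting intervals a change of 2-fold in Fas, Tnfrsf12a, Tnfrsf1b, Tnfrsf1a or Tnfrsf23 lies outside, while for members with few reads it does not: the interval for Tnfrsf9 in medium was -1.71 to 1.21.

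**Figure D3:**
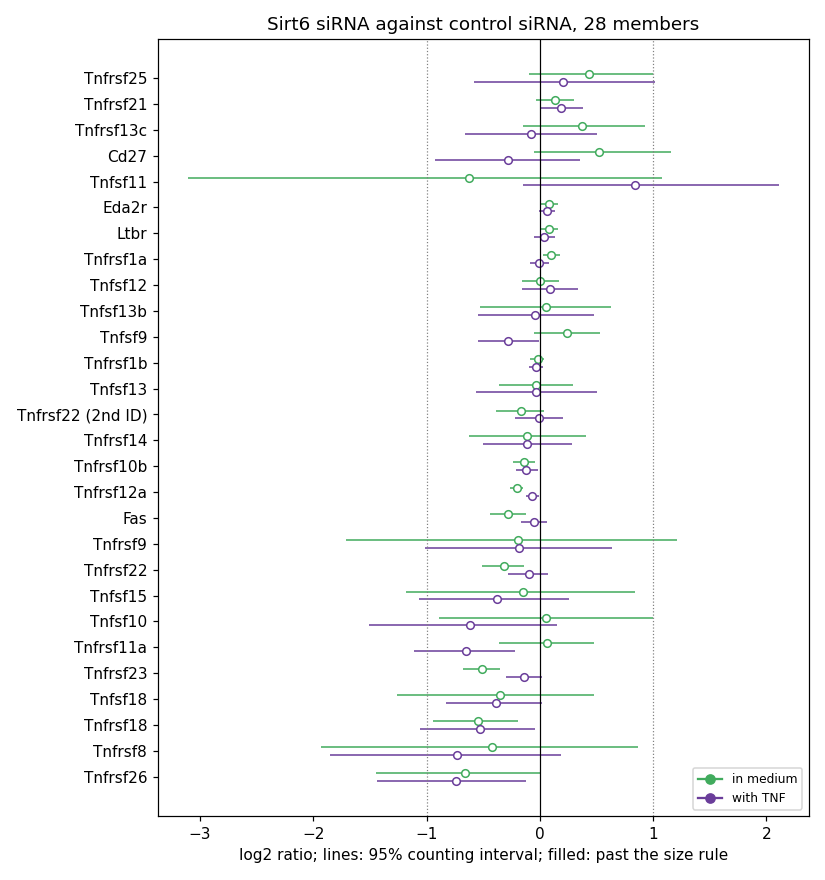
Log2 ratio of Sirt6 siRNA to control siRNA for the same 28 members, green in medium and purple with TNF, with 95% counting intervals as lines and dotted lines at 2-fold. All points are open, since none passes the size rule, and they lie between -0.74 and 0.84.

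The difference between the TNF responses, with Sirt6 siRNA minus control siRNA, passed its limits (at least 1 on the log2 scale and an interval that left out 0) for none of the 28 members, against 0.596% of all genes upward and 1.08% downward. With no minimum size, the interval left out 0 for 3 members upward, Fas at 0.22 (0.03 to 0.42), Tnfrsf12a at 0.14 (0.06 to 0.21) and Tnfrsf23 at 0.38 (0.15 to 0.60). It did so for 2 downward, Tnfrsf11a at -0.71 (-1.31 to -0.13) and Tnfsf9 at -0.52 (-0.91 to -0.13). Over all genes 12.6% and 8.53% did so, which is near the members' share.

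The genes through which the receptors act were read as a list of 39 adaptors, kinases, caspases and NF-kB genes, all of which reached 1 RPM. TNF raised 9 of them under control siRNA, where 2.29% of all genes rose, and 10 under Sirt6 siRNA, where 2.17% did, and lowered none. The 9 rose in both, where 1.62% of all genes did: Traf1, Birc3, Tnfaip3, Tnip1, Nfkbia, Nfkbie, Nfkb1, Nfkb2 and Relb. Median log2 ratios were 0.25 and 0.27. Traf1, a TRAF adaptor, had 10 and 73 reads with control siRNA and 5 and 78 with Sirt6 siRNA (log2 2.90, 2.18 to 4.26, and 3.64, 2.85 to 5.80). Tnfaip3, the ubiquitin-editing brake on NF-kB, had 102, 406, 69.0 and 386 normalised RPM, a rise of 3.99-fold in control siRNA cells and 5.59-fold in Sirt6 siRNA cells. The IkB inhibitor gene Nfkbie was 3.45-fold and 5.09-fold higher, and Birc3, a ubiquitin ligase of the receptor complex, 3.27-fold and 4.15-fold. Nfkbie had 22.0, 76.3, 16.6 and 85.0 normalised RPM, and Birc3 10.6, 35.0, 9.23 and 38.6. The difference of the 2 responses was log2 0.56 (0.35 to 0.78) for Nfkbie and 0.35 (0.05 to 0.65) for Birc3. It was above 0 for 28 of the 39 genes and below for 11. It passed its limits for 0 of them in either direction, against 0.596% of all genes upward and 1.08% downward.

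Adaptors and death-signalling genes of the list, singled out after their values were seen, are given next. The death-domain adaptors and Casp8 did not pass. Log2 ratios were 0.04 and 0.21 for Fadd, 0.06 and 0.05 for Casp8 and 0.03 and 0.09 for the kinase gene Ripk1. Tradd, the adaptor that binds Tnfrsf1a, had 560 and 332 reads with control siRNA (log2 -0.48, -0.68 to -0.28) and 536 and 446 with Sirt6 siRNA (log2 -0.09, -0.28 to 0.09). Cflar, an inhibitor of caspase-8 activation, was 1.69-fold higher with control siRNA and 2.05-fold with Sirt6 siRNA, past the rule in the second. Other genes of the list were higher short of 2-fold. Mlkl had log2 ratios of 0.69 (0.60 to 0.79) and 0.73 (0.64 to 0.83), and Birc2 of 0.83 (0.66 to 1.01) and 0.62 (0.46 to 0.79). Ripk3 was level, at -0.07 (-0.19 to 0.05) and -0.03 (-0.15 to 0.09). Between Sirt6 siRNA and control siRNA none of the 39 passed, in medium (0.491% of all genes higher and 0.524% lower) or with TNF (0.393% and 0.655%). In the additive model edgeR called 4 lower for siRNA, Tnfaip3, Traf2, Map3k14 and Ikbkg, and 0 higher, where 3.16% and 3.43% of all genes were called. DESeq2 called 0 and gave some of the 39 no adjusted p. Tnfaip3 was at -0.56 (-0.65 to -0.47) in medium and -0.07 (-0.12 to -0.03) with TNF. Ratios were below 0 for 28 of the 39 in medium and 19 with TNF. Of superfamily receptors outside the rule, Ngfr had log2 ratios for TNF of 0.75 (0.25 to 1.30) and 0.23 (-0.27 to 0.74), and Relt -0.03 (-0.33 to 0.26) and -0.59 (-0.88 to -0.31).

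**Figure D4:**
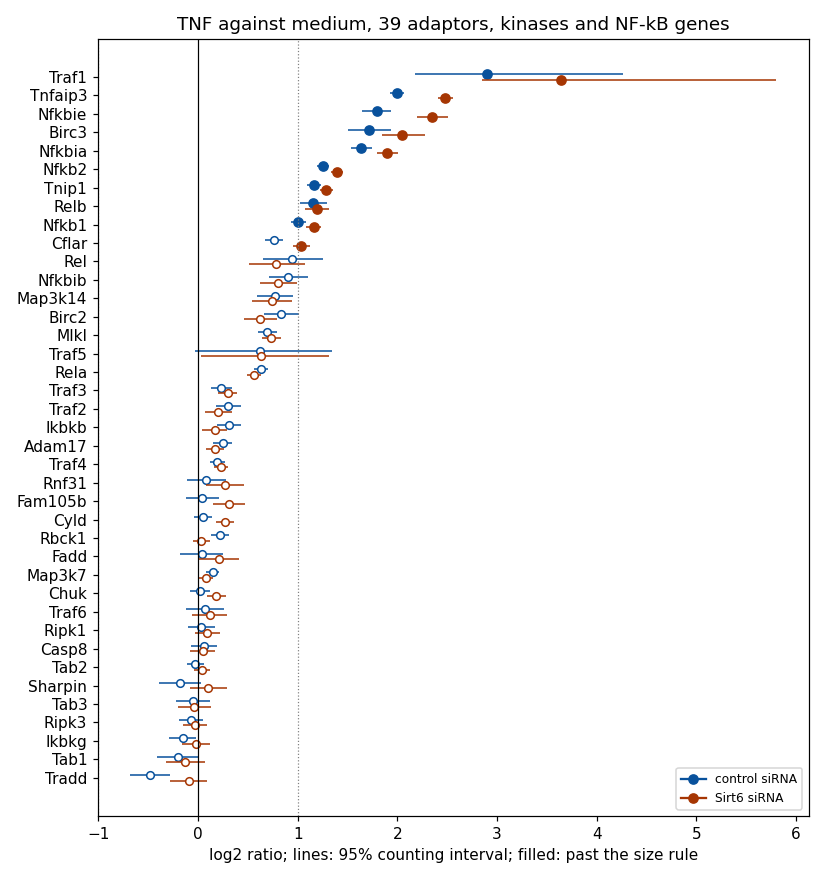
Log2 ratio of TNF to medium for 39 genes of TNF receptor signalling, blue with control siRNA and brown with Sirt6 siRNA, with 95% counting intervals; filled points pass the size rule and the dotted line marks 2-fold. Traf1 lies highest, at 2.90 and 3.64, and Tradd lowest with control siRNA, at -0.48.

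Low counts in the table were more often even than odd. From 845 to 899 genes per library had 2 reads and 749 to 799 had 1 read, and 396 to 457 had 4 reads while 329 to 383 had 3. The cause was not tested, and intervals were therefore also computed from halved counts. With these, Tnfrsf8 no longer passed for TNF with control siRNA (-0.33 to 2.92), and the other calls among the 28 compared members held, the closest being Tnfsf15 with Sirt6 siRNA (0.04 to 2.58) and Tnfrsf9 (0.14 to 3.54 and 0.14 to 3.70).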

How the data were processed

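Polyadenylated RNA of 4 cultures, 1 per group, was turned into libraries with NEBNext Ultra reagents, per the labels' protocols. The authors deposited raw read counts per gene, per the file headers. They also deposited values headed RPKM, which equal counts scaled to 1000000 reads per library to within 0.0005 and so are RPM; these were not used. CASAVA, Bowtie 1.0.1 and edgeR are named in the submitters' processing notes. The counter, strand setting, genome build and annotation are not given in the sources used here. Gene positions are not stated except for the RefSeq windows.

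Counts were scaled by TMM (edgeR 4.0.16, R 4.3.3) over the 15274 genes that reached 1 RPM in any library. Log2 ratios used a prior count of 2. Ratio intervals are exact conditional binomial, level intervals exact Poisson, and intervals of the difference of responses delta-method with 0.5 added to each count, all at 95% and for counting error only. No p-value was computed between single libraries. DESeq2 1.42.0 and edgeR served in an additive fit. Exon lengths and shared 50-base sequences come from GENCODE mouse release M21; the authors' gene models may differ. The rules for ratios and for the difference of responses were run on simulated Poisson counts, which hold no spread between cultures. That simulation cannot show how the rules do with such spread. It did not cover the additive fits, the motif search or the shared sequences.

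Values in every library were given for members past the size rule and for the 6 with the highest mean level; other genes by ranges and counts, except some members and signalling genes singled out after their values were seen. The members and lists were chosen with earlier results of these data known.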

Additional observations from a re-analysis of the deposited data

Results flagged for a closer look

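In 3 members the TNF ratio was above 0 with control siRNA and below 0 with Sirt6 siRNA. They were picked for these opposite signs, and the share of all genes with opposite signs was not computed. With 1 library per group the difference was not tested against replicates. For Tnfrsf11a, a receptor of Tnfsf11, log2 ratios were 0.44 (0.03 to 0.87) and -0.26 (-0.72 to 0.17), difference -0.71 (-1.31 to -0.13). For Cd27 they were 0.43 (-0.20 to 1.10) and -0.37 (-0.99 to 0.20), difference -0.80 (-1.66 to 0.00). For Tnfrsf13c, a B cell receptor of the family, they were 0.24 (-0.34 to 0.83) and -0.21 (-0.75 to 0.31), difference -0.45 (-1.21 to 0.29). Apart from the 0.44 of Tnfrsf11a, every interval of a single ratio included 0.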

How the results depend on the processing

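Of 118 recomputed counts of members, 87 stayed within 1.5 times the reported one. Many of these were 0 in both settings, and each additive count was entered for both comparisons of its term. Removal of the overlapping genes could change only the counts of members lower with TNF, since of those genes Tnfsf13 alone passed the rule. The tally is therefore no measure of how stable the results are. Of 673 recomputed single-gene ratios and differences, 39 passed where the reported one did not and 10 no longer passed. In 8 the sign changed, none of them past the limits in either setting; the widest was Tnfsf11 for silencing, at -0.63 in medium and 0.40 in the additive edgeR fit. For TNF, members higher were 3 with control siRNA and 2 with Sirt6 siRNA at a minimum of 5 RPM, 17 and 13 with the interval alone, and 14 in the additive edgeR fit. Members lower were 3 and 4 at 1.5-fold, 5 and 7 with the interval alone, 5 by edgeR, 2 by DESeq2, 2 with Sirt6 siRNA without a minimum level (Tnfrsf4 added, lost with halved counts, -3.39 to 0.47) and 0 without Tnfsf12, Tnfsf13 and the second Tnfrsf22 identifier. For silencing, members higher with the interval alone were 2 in medium and 1 with TNF. Members lower were 6 in both with the interval alone, 1 in medium without a minimum level (Tnfrsf11b, lost with halved counts, -8.20 to 0.37), 2 with TNF at 1.5-fold and 2 by edgeR. For the difference of responses the interval alone gave 3 higher and 2 lower, and no minimum level gave 1 higher. In the additive model DESeq2 gave 5 higher and 2 lower for TNF, and 0 lower for siRNA, with 1 at an unadjusted p under 0.05. For siRNA it gave many members no adjusted p. Shares of all genes were computed only for the reported rule, the interval alone and the additive fits at an adjusted p. Counts in the other settings have no such share beside them. The minimum on the mean, the halved counts and the removal of overlapping genes were chosen after seeing the data. No paired analysis was possible because the groups share fewer than 2 replicate numbers; the additive model compares TNF with medium within each siRNA. Depth limits most the 5 compared members with under 50 reads in every library.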
